A study of Homo sapiens with 12 samples.

Results

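Huh7 is an established human hepatoma line that still makes many liver plasma proteins. The wild-type (WT) A1CF experiment used 1 clone of these cells carrying a construct from which WT A1CF could be switched on with doxycycline. It compared 3 libraries of that clone with doxycycline against 3 libraries of the same clone without it. The sources used here give neither the dose nor the duration of doxycycline, and no sample had doxycycline without a construct, so effects of the drug and of A1CF cannot be told apart. Whether the libraries came from separate cultures is not stated, so the spread behind the authors' test may be technical. The members were all 142 rows of the WT table, out of 1939 distinct gene symbols in either deposited table of the series. Each row carries 1 control value and 1 doxycycline value in FPKM (fragments scaled to transcript length and to library size), which the authors pooled over the libraries of a group. No spread between libraries could therefore be given, and folds and log2 changes below are descriptions of these pooled values. In bulk RNA, fewer cells of a type and less RNA per cell cannot be told apart. All rows had been marked significant by the authors before deposit, so that each passed their test at a q-value (a p-value adjusted for the false discovery rate) under 0.05.

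A1CF is an RNA-binding protein. With the cytidine deaminase APOBEC1 it recognises apolipoprotein B messenger RNA, whose editing produces the shorter form of that lipoprotein component, and it is also known to take part in splicing in liver. The rows below hold genes of several known regulatory programmes. NF-kappaB transcription factors, held back by inhibitor proteins such as NFKBIA, turn on chemokines, acute-phase genes and their own inhibitors. SREBP factors, held in the endoplasmic reticulum by INSIG proteins, turn on sterol and fatty acid synthesis. ATF4 turns on amino acid supply and stress genes when translation initiation is restrained.

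The genes are grouped below by known function, in groups drawn after the symbols were seen, and set beside gene lists written with earlier results of these data known. The strongest falls were those of fetal globin RNA and of rows named for short RNAs. A broad set of inflammatory and epithelial defence genes followed, and the rises were fewer and smaller. Of the 142 rows, 86 were lower with doxycycline (60.6%) and 56 were higher. Ranked by log2 of the ratio after adding 1 FPKM to both groups, the scale used below for every log2 change unless stated otherwise, values ran from -6.99 for HBG1 to 2.68 for MIR7845. On that scale 26 rows fell by at least 1 (18.3% of the table) and 5 rose by at least 1 (3.52% of the table). The median change was -0.79 among lower rows and 0.62 among higher rows, and the smallest changes in the table were -0.46 for HHAT and 0.41 for PXK. The p-values and q-values of the authors' deposited table are met, as the smallest number that fits, by 15109 genes tested and 172 past a q of 0.05, or 1.14% of genes. Whole multiples of both numbers fit as well and leave that share as it is. At the smallest number, 30 of the 172 were not analysed here.

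**Figure D1:**
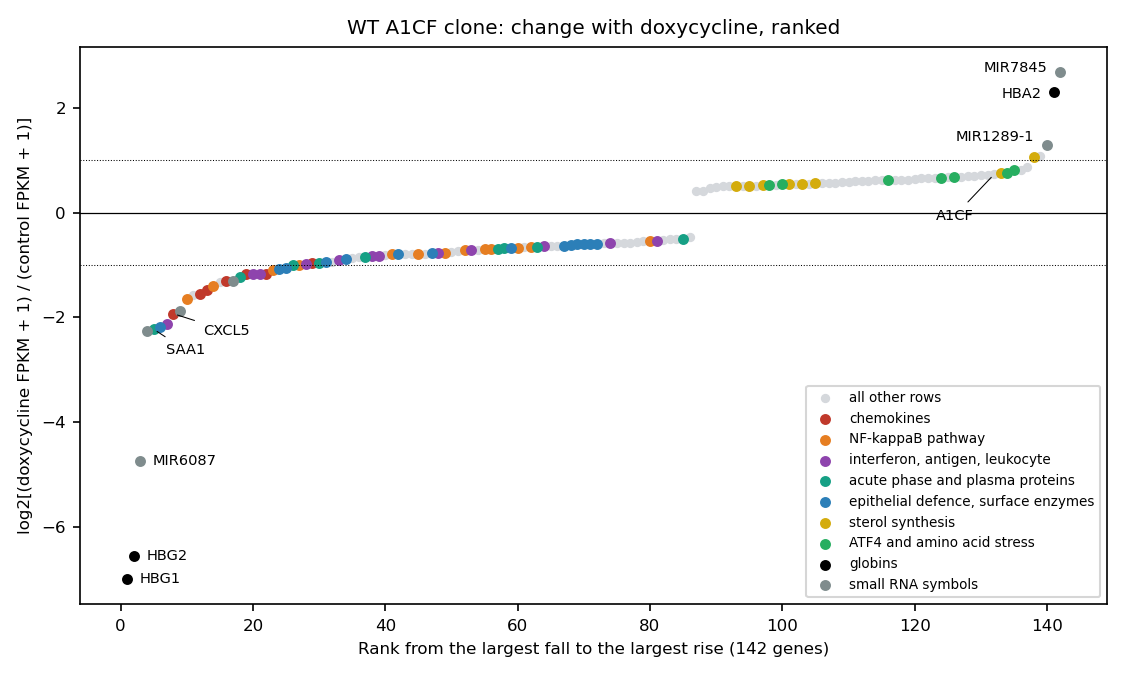
All 142 genes of the WT table in order of their change (x axis, rank; y axis, log2 of doxycycline over control after adding 1 FPKM to each), each point 1 gene, coloured by known function, with dotted lines at -1 and 1. Chemokine, NF-kappaB, plasma protein and epithelial defence genes lie in the falling arm, and sterol and ATF4 genes lie in the rising arm at 0.51 to 1.06.

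The chemokines were the protein-coding group with the deepest common fall, and the sequences upstream of them are shown first because 4 of them carry the same base string at nearly the same place. NF-kappaB binds sites of a loose GG to CC pattern, searched here as GGNNNTTCC on both strands in windows from 250 bases before to 50 bases after each start site (RefSeq, GRCh38.p14). Stretches of these windows are printed in the direction of transcription, with matches in capitals. CXCL8 lies at chr4:73740443-73740521 on the plus strand, CXCL6 at chr4:73836554-73836632 on the plus strand, CXCL1 at chr4:73869280-73869358 on the plus strand and CXCL5 at chr4:73998724-73998802 on the minus strand.
CXCL8: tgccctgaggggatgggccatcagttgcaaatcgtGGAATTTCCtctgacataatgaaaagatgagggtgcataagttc
CXCL6: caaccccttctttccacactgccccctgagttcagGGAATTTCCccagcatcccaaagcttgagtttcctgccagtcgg
CXCL1: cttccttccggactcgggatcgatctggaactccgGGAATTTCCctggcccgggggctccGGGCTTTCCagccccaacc
CXCL5: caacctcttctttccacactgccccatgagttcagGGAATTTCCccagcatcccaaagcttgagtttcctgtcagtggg
The string GGAATTTCC began at position -91 in CXCL8, -89 in CXCL6, -78 in CXCL1 and -90 in CXCL5, counted from the start site. It is not particular to these genes. The NF-kappaB pathway genes NFKBIZ, at -222, and MAP3K8, at -29 or -192 depending on the start site, also held it. CXCL10 at -176 and ICAM1 at -186 held it read on the other strand, as GGAAATTCC. The CXCL5 and CXCL6 stretches were identical at 75 of 79 bases, whereas CXCL5 and CXCL8 shared 22 of 79.

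Of the 7 chemokines in the table, 6 had a promoter in the reference table, and all 6 windows held at least 1 match. CCL20 had 1 match, starting at -79, and CXCL10 had 3, the first at -176. Over all 35116 windows of 27305 genes, 20.1% held a match. Only 101 of the 142 rows had a promoter, 57 lower and 44 higher. Windows of these lower rows held one in 40 of 92 cases (43.5%) and windows of these higher rows in 16 of 62 (25.8%). The lower windows include those of the chemokines (6 of 6) and of the NF-kappaB pathway genes described below (12 of 19). Among the rising groups, sterol genes held one in 4 of 10 windows (40%) and ATF4-linked genes in 1 of 8 (12.5%). Several genes contribute more than 1 window, these chemokines are known NF-kappaB targets, and a match describes letters and not binding.

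All 7 chemokines in the table, out of a list of 18, were lower, with a median log2 change of -1.31 against -0.59 over all rows. CCL20, which attracts cells bearing the receptor CCR6, had the highest level and went from 367 to 148 FPKM. CXCL5, a neutrophil attractant, went from 97.5 to 24.9 FPKM, a 3.92-fold fall with a log2 change of -1.93. CXCL8, the best-known human neutrophil chemokine, fell 3.17-fold. CXCL6 and CXCL1, which signal through the same receptors, fell 2.93-fold and 3.12-fold to 1.83 and 1.48 FPKM. The 4 genes lie in the same stretch of chromosome 4, from position 74606223 to 74864446 on hg19, and their levels spanned a wide range within that stretch. CX3CL1, the membrane-tethered chemokine fractalkine, fell 2.13-fold from 11.8 FPKM. With 1 FPKM added CXCL5 fell most of the group, whereas as a plain fold CXCL10 did, at 5.50-fold. CXCL10 (3.58 to 0.650 FPKM) has a row that spans 101623 bases, 42.7 times the RefSeq gene, so its value may include other transcripts.

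NF-kappaB pathway genes fell at every level of the pathway represented in the table, 13 of 13, with a median of -0.76. Of the kinases, IKBKE, which phosphorylates NF-kappaB and interferon regulators, fell 4.10-fold, and MAP3K8, which activates ERK downstream of inflammatory receptors, fell 1.84-fold. Of the subunits, RELB went from 3.18 to 1.41 FPKM and NFKB2 from 2.24 to 0.996 FPKM, both 2.25-fold. These encode the partners of the non-canonical branch. The inhibitors fell too. NFKBIA went from 65.9 to 37.8 FPKM, NFKBIE from 6.17 to 3.52 FPKM, and the row for NFKBIZ, a nuclear inhibitor family protein, together with NXPE3 fell 2.05-fold from 32.7 FPKM.

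Feedback and effector genes of the pathway followed the same direction. ZC3H12A, an RNase that degrades cytokine messenger RNAs, went from 6.44 to 1.83 FPKM, a log2 change of -1.40. SOD2, the mitochondrial superoxide dismutase, had the highest level of the 13 and went from 149 to 69.2 FPKM. ICAM1, an adhesion molecule for leukocytes, fell 1.63-fold and TNFAIP2 1.84-fold. TNFAIP3, a ubiquitin-editing inhibitor, and BIRC3, a ubiquitin ligase of the TNF receptor complex, were both below 2 FPKM in the control group. BIRC3 fell 3.68-fold, but its log2 change was -0.76 with 1 FPKM added. Of the 30 genes in a list of NF-kappaB subunits, regulators and targets, written with earlier results known, 12 were in the table. All 12 were lower, against 60.6% of all rows, and the group of 13 was drawn after the symbols were seen. No gene of the 24 in the cytokine and TNF superfamily list was among the rows analysed.

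Promoters of the inhibitors NFKBIA, NFKBIZ and TNFAIP3 also held matches. NFKBIE and the RNase gene ZC3H12A were not among the genes with a match. TNFAIP3 (chr6:137867157-137867235, plus strand) and NFKBIA (chr14:35404948-35404999, minus strand) are printed because they are feedback inhibitors that fell together with the chemokines.
TNFAIP3: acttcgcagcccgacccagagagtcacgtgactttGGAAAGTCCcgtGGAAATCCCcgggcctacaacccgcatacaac
NFKBIA: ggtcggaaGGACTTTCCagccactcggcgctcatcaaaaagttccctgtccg
Each window held 2 matches, with the first at -67 in TNFAIP3 and at -242 in NFKBIA. Of the 11 pathway genes with a promoter, 8 had a match in at least 1 window, and 12 of their 19 windows held one.

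**Figure D2:**
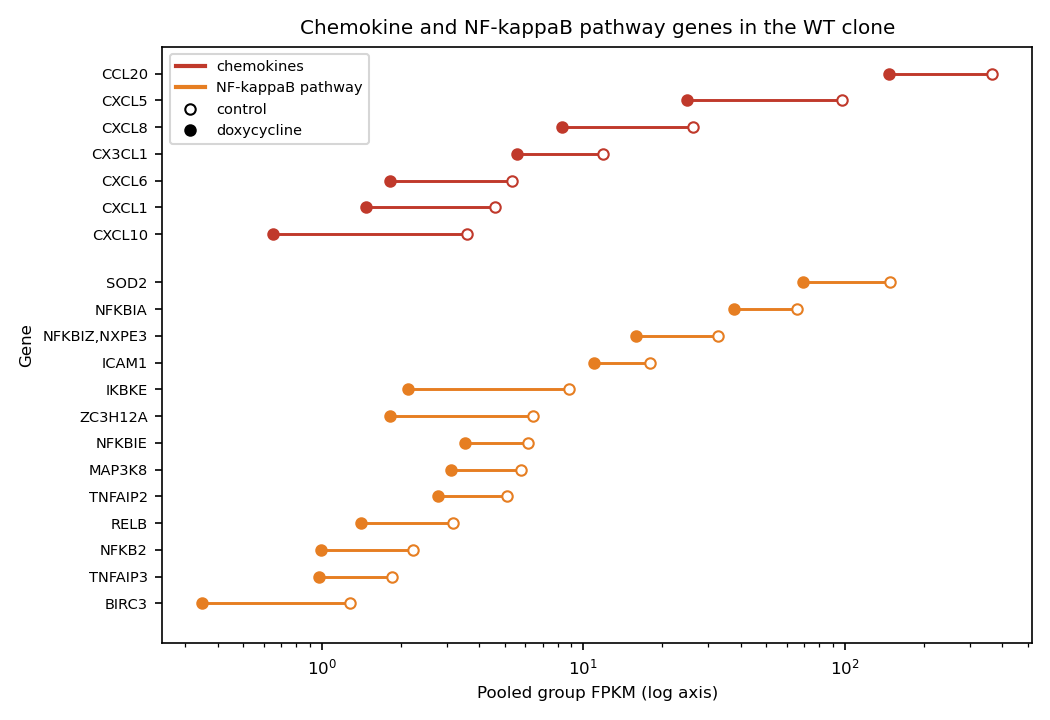
Pooled FPKM (x axis, log scale) of 7 chemokine and 13 NF-kappaB pathway genes, with open circles for control and filled circles for doxycycline. Every filled circle lies to the left of its open circle, from CCL20 at 367 to 148 FPKM down to BIRC3 at 1.28 to 0.348 FPKM.

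Genes of interferon response, antigen presentation and leukocyte signalling that were grouped here were lower, 12 of 12, with a median of -0.82. The count depends on how the group was drawn, since NCR3LG1, a ligand of a natural killer cell receptor that rose, was placed outside it. UBD, a ubiquitin-like protein induced by TNF and interferon gamma, went from 58.5 to 12.6 FPKM and ranked seventh among the falls. BATF, an AP-1 family factor, fell 3.97-fold from 2.91 FPKM, and LGALS1, the secreted lectin galectin-1, fell 2.42-fold from 18.9 FPKM. PIK3AP1, an adaptor for PI3 kinase, fell 2.16-fold. CYBA, a subunit of the NADPH oxidase, had the highest level of the group and went from 209.8 to 139.8 FPKM, a log2 change of -0.58. IFITM3, which restricts virus entry, GBP2, a guanylate-binding protein, TRIM31, a ubiquitin ligase, and HHLA2, a B7 family ligand, fell between 1.80-fold and 2.70-fold. CTSS, a protease that trims the invariant chain of class II molecules, had the smallest change at -0.53. Of 29 genes in the interferon list, 3 were in the table, GBP2, IFITM3 and UBD, all lower. Of 20 immune cell markers, only LYZ and BATF were among the rows analysed, and the pan-leukocyte gene PTPRC was not analysed here. The part of other cells in these values was not tested.

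Liver plasma protein genes in the table also fell together, 9 of 9 counting TDO2 and the factor CEBPD, with a median of -0.84. Here too the count depends on the grouping, since INHBE, a liver activin subunit that rose, was placed with ATF4-linked genes. SAA1, a major acute-phase protein, had the deepest fall, from 7.42 to 0.803 FPKM, rank 5 among the falls. C3, the central complement component, went from 48.4 to 26.6 FPKM, C4BPA, an inhibitor of the classical complement pathway, from 18.2 to 11.2 FPKM, and CFHR5, a factor H relative, from 2.12 to 0.553 FPKM. LRG1, an inflammation-induced glycoprotein, fell 1.66-fold. KNG1, the kininogen precursor, was the most abundant at 99.0 FPKM in controls and fell 1.41-fold. Of 44 genes in the acute-phase, complement and coagulation list, 3 were in the table, C3, KNG1 and SAA1, all lower. The vitamin D carrier GC fell from 9.46 to 5.56 FPKM and TDO2, the first enzyme of tryptophan breakdown, from 2.75 to 0.938 FPKM. The TDO2 row spans 5.43 times the RefSeq gene. CEBPD, a transcription factor of the acute-phase response, went from 24.6 to 9.90 FPKM, but its row covers 477257 bases, 381 times the length of the RefSeq gene. Of 44 genes in the hepatocyte list, 3 were in the table, GC, TDO2 and VNN3, and all were lower. Albumin and other defining hepatocyte genes were not analysed here, so the liver identity of the cells could not be checked beyond these plasma protein rows.

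Genes grouped here under mucosal defence and the epithelial surface were lower, 14 of 14, with a median of -0.72. That count also depends on the grouping, since the carriers SLCO4C1 and SLC20A1, which rose, were placed with transport genes. VNN3, annotated in RefSeq as a transcribed pseudogene, and VNN2, its neighbour in the vanin family, went from 12.9 to 2.07 FPKM and from 6.29 to 3.28 FPKM. The antiproteases SLPI and PI3, which protect epithelia from neutrophil elastase, were among the most abundant rows, at 196 falling to 129.6 FPKM and at 125 falling to 67.3 FPKM. LYZ, which cleaves bacterial cell walls, fell 2.13-fold. PIGR, which carries polymeric antibodies across epithelia, fell 3.83-fold from 2.34 FPKM, and EHF, an epithelial ETS factor, went from 1.28 to 0.321 FPKM. EHF was the single row from a list of 14 cholangiocyte markers. Enzymes and carriers of the cell surface were among these rows. CA4, a carbonic anhydrase, fell 1.61-fold, and NT5E, which makes adenosine, 1.57-fold. SLC6A14, an amino acid importer, fell 2.21-fold. SDC4, a heparan sulphate proteoglycan, went from 128 to 84.3 FPKM. CTSE, an aspartic protease, and TM4SF20 had log2 changes of -0.63 and -0.59.

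**Figure D3:**
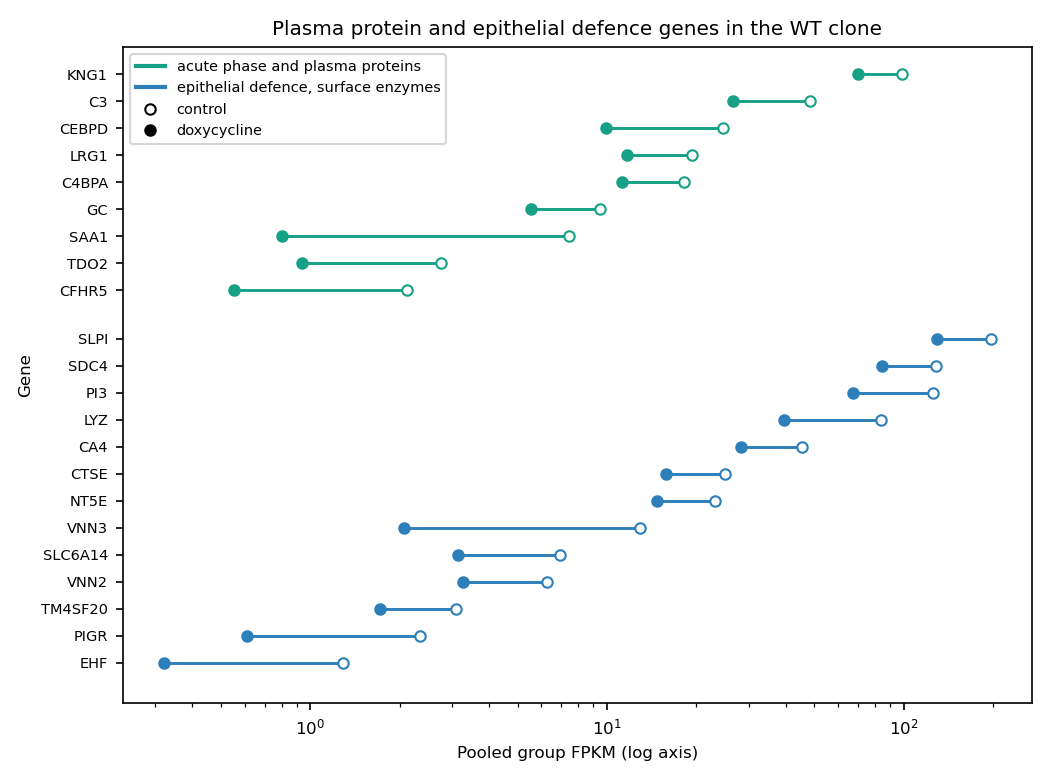
Pooled FPKM (x axis, log scale) of 9 plasma protein and related genes and 13 of the 14 epithelial defence and surface genes, with open circles for control and filled circles for doxycycline. Every filled circle lies to the left of its open circle, with the widest gaps for SAA1 and VNN3 and narrow ones for KNG1, SLPI and SDC4.

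Some rows were neighbours on the chromosome. Using the hg19 positions of the rows, 21 pairs, made of 28 of the 142 rows, lay within 500 kb of each other. Lower rows made up 60.6% of the table. How often tested genes outside it lie so close was not analysed. In 20 pairs both members fell, in none did both rise, and in 1 pair the directions differed. The differing pair was CLTC, higher, and CA4, lower, on chromosome 17. Besides the CXCL genes and the vanins, the pairs included PI3, SLPI and SDC4 on chromosome 20 (43803540 to 43977064). On chromosome 1, CTSE, IKBKE, PIGR and C4BPA lay between 206317459 and 207318317, each within 500 kb of the next. STAP2, a signalling adaptor, and LRG1 were a pair on chromosome 19, as were SH3BP1 and LGALS1 on chromosome 22, which lay 17.2 kb apart. Several of these pairs belong to 1 gene family, and longer runs give several pairs, so the pairs are not independent.

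A1CF itself ranked 11 among the rises with 1 FPKM added and 26 with nothing added. It went from 19.5 to 33.2 FPKM, a 1.70-fold rise and a log2 change of 0.74, over a row on chromosome 10 from 52559039 to 52645465 (hg19). The value does not separate the construct from the resident gene. Of the 13 genes in the list of A1CF and editing factors, A1CF alone was among the rows analysed. Its rise was larger than the median rise of 0.62.

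Sterol synthesis genes rose in a narrow band, 8 of 8, with a median of 0.55. All of them except INSIG1 were above 70 FPKM in controls. Along the pathway, HMGCS1, which makes HMG-CoA, went from 101 to 144 FPKM. IDI1, the isopentenyl diphosphate isomerase, rose 1.49-fold and FDFT1, which makes squalene, 1.48-fold. CYP51A1, the lanosterol demethylase, had the highest level of the group, from 228 to 328 FPKM. MSMO1, which removes the next methyl groups, went from 129 to 217 FPKM, and DHCR7, which completes cholesterol, rose 1.45-fold. The named enzymes other than MSMO1 differed little in change, from 0.51 for HMGCS1 to 0.56 for IDI1. INSIG1, the sterol-responsive retention factor, rose more than any enzyme, 2.12-fold to 57.8 FPKM. Of the 32 genes in the sterol list, 8 were in the table, where 1.14% of tested genes passed the authors' q of 0.05. The LDL receptor and the SREBF genes were not among the rows analysed.

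Fatty acid genes gave a mixed picture. SCD, which introduces the first double bond into saturated fatty acids, went from 74.0 to 158 FPKM, a log2 change of 1.08. With 1 FPKM added this was the largest rise of a protein-coding gene other than globin, but as plain folds PXK at 2.70, SLC25A18 at 2.61 and NCR3LG1 at 2.31, all under 1 FPKM in controls, exceeded its 2.13. ACSS2, which converts acetate to acetyl-CoA, rose 1.83-fold to 21.9 FPKM. PDP2, a phosphatase that activates pyruvate dehydrogenase, and LIPG, endothelial lipase, rose 1.82-fold and 1.67-fold from low levels. ACSL1, which activates long-chain fatty acids, went the other way, from 21.1 to 14.1 FPKM. Of 28 genes in the fatty acid and triglyceride list, 3 were in the table, SCD and ACSS2 higher and ACSL1 lower. LIPG was the only row analysed from a list of 31 lipoprotein and lipid droplet genes, and apolipoprotein B was not analysed here.

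ATF4-linked genes also rose together, 7 of 7, with a median of 0.67, where 56 of all 142 rows were higher. The count depends on the grouping, since SLC6A14, an amino acid importer that fell, was placed with epithelial genes. INHBE was counted although it is outside the ATF4 list. Of the 36 genes in that list, 6 were in the table, all higher, where 1.14% of tested genes passed the authors' q of 0.05. ASNS, asparagine synthetase, went from 22.3 to 39.9 FPKM and TRIB3, a pseudokinase induced by ATF4, from 26.5 to 45.5 FPKM. STC2, a secreted glycoprotein, rose 1.81-fold, DDIT4, an inhibitor of mTORC1, 1.67-fold, and INHBE, a liver activin subunit, 1.58-fold. The amino acid carriers SLC7A11, which imports cystine, and SLC7A1, which imports arginine and lysine, rose 1.51-fold and 1.74-fold. RRAGC, a GTPase through which amino acids reach mTORC1, rose 1.73-fold from 7.22 FPKM. No gene of the 17 in the unfolded protein list was among the rows analysed.

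ATF4 binds composite elements, searched here as TGATGNAA on both strands, and 2 of the 8 windows of 5 genes with a promoter held one, against 3.62% of all windows. The ASNS stretch (chr7:97872434-97872511, minus strand, GRCh38.p14) is shown as the one upstream of a start site, with its match in capitals at -68.
ASNS: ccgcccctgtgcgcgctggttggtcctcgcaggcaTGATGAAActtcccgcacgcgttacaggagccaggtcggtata
The other match, in SLC7A1, began 7 bases after the start site. A sterol regulatory element, searched as TCACNCCAC, was in none of the 10 windows of 6 sterol genes and in 1.13% of all windows. That says only that these letters were not within 250 bases before or 50 bases after those starts.

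**Figure D4:**
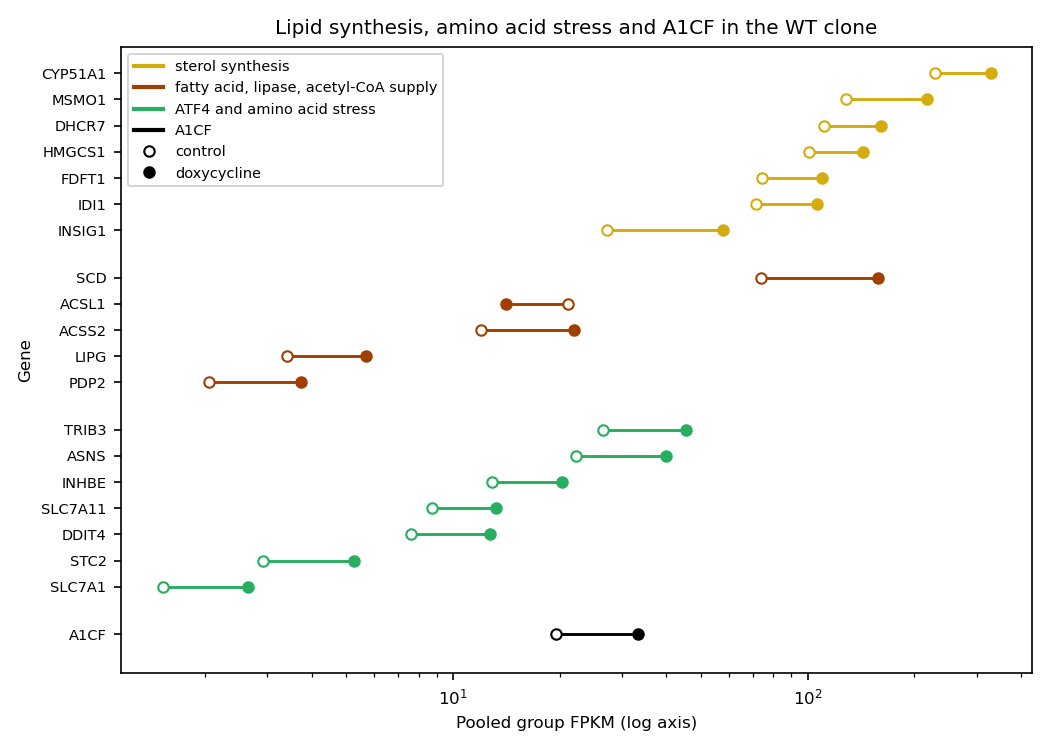
Pooled FPKM (x axis, log scale) of 7 of the 8 sterol genes, of fatty acid and ATF4-linked genes and of A1CF, with open circles for control and filled circles for doxycycline. Filled circles lie to the right in every row except ACSL1, and the sterol enzymes occupy the range from 71.6 to 328 FPKM.

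Genes grouped here under membrane traffic and transport were mostly higher, 9 of 10, where 56 of all 142 rows were higher. That count depends on the grouping, since the amino acid importer SLC6A14 and the protease CTSS, which fell, were placed elsewhere. CLTC, the clathrin heavy chain, went from 43.1 to 68.3 FPKM, RAB14, a GTPase of endosomal recycling, from 7.28 to 12.4 FPKM, and TM9SF2, a Golgi membrane protein, from 15.4 to 23.1 FPKM. NEU1, the lysosomal sialidase, was the most abundant at 138 rising to 198 FPKM. CHP1, a calcineurin-like calcium-binding protein, rose 1.57-fold. SLC20A1, a phosphate importer, SLCO4C1, an organic anion carrier, and SLC25A18, a mitochondrial glutamate carrier, rose 1.56-fold, 1.71-fold and 2.61-fold, the last from 0.559 FPKM. The lactate exporter SLC16A3 was the exception and fell 1.51-fold.

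RNA-binding and chromatin genes were split, 9 higher and 3 lower, and the 9 include A1CF, the gene carried by the construct. EIF1, which helps select start codons, went from 26.0 to 40.7 FPKM. The row of PCBP2, a poly(C)-binding protein, rose 1.49-fold, and that of PABPC1, the main poly(A)-binding protein, rose 1.51-fold, each sharing a row with a short symbol. MALAT1, a nuclear long noncoding RNA, had the smallest rise of the group, from 52.3 to 73.5 FPKM. IREB2, which controls iron-related messenger RNAs, PEG10, a retroelement-derived gene often high in hepatoma, CBX5, the heterochromatin protein, and TBL1X, a corepressor subunit, rose between 1.45-fold and 1.75-fold. BEND3, a repressor that binds heterochromatin, went from 4.55 to 1.22 FPKM, HDAC9, a class IIa deacetylase, from 6.48 to 3.36 FPKM, and ATN1 from 1.73 to 0.826 FPKM.

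Genes grouped here under adhesion and matrix were mostly higher, 5 of 7, and those that rose had lower levels than the 2 that fell. This count depends on the grouping too, since the adhesion molecule ICAM1 and the proteoglycan SDC4, which fell, were placed elsewhere. FAT4 and PCDH9, both cadherin superfamily members, SLIT2, a guidance ligand, and FBN1, which forms microfibrils, had 0.849 to 1.77 FPKM in controls and rose 1.74-fold to 1.91-fold. HEG1, a junctional receptor, rose 1.60-fold from 7.68 FPKM. GJA1, the gap junction protein connexin 43, and MMP14, a membrane-bound collagenase, were more abundant and had log2 changes of -0.63 and -0.57. Of 33 matrix genes listed, FBN1 and MMP14 were in the table. Of the other rises, BHLHE40, a circadian repressor, reached 0.88, although its row spans 15.0 times the RefSeq gene. It was the single row from a list of 33 immediate-early genes. NCR3LG1, a ligand of an activating natural killer cell receptor, rose 2.31-fold from 0.955 FPKM. The signalling genes PIK3CB, PAK2, PTP4A1 and WASF3 and the transcription factor ONECUT2 rose between 1.49-fold and 1.95-fold. Of the other falls, SGK1, a serum- and glucocorticoid-induced kinase, went from 104 to 72.8 FPKM, TUBB3, a beta-tubulin, from 33.6 to 19.9 FPKM, and HSPB1, a small heat-shock protein, from 6.61 to 3.53 FPKM. No gene of the cell cycle and replication list (29 genes) or of the oxidative stress and metallothionein list (23 genes) was among the rows analysed.

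The 3 globin rows, from a list of 10 globin genes, held the deepest falls and the second-ranked rise of the table and did not share a direction. HBG1 went from 23802 to 186 FPKM and its near-identical neighbour HBG2 from 13402 to 141 FPKM, falls of 128-fold and 95.1-fold, so reads may be split between them. Together they made up 88.1% of the summed FPKM of the 142 rows in controls and 7.39% with doxycycline. Without them the sum was 5028 FPKM in controls and 4099.7 FPKM with doxycycline. HBA2, an alpha-globin gene, rose from 1.15 to 9.67 FPKM. In the authors' deposited table its test statistic was 1.43, the smallest in absolute value of the 141 that could be read, yet its p-value was 5e-05, the smallest given. Of 14 genes in the erythroid list, GP9, a platelet surface glycoprotein subunit, was the single row analysed. It was at 1.95 FPKM in controls and listed at 0 with doxycycline. The library kit is one made to remove globin RNA. Values of single libraries were not analysed here, so it is not known how evenly the libraries of a group shared these levels.

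Short RNA symbols filled 6 rows, with 4 falls and 2 rises, all of them large. RNU11, a small nuclear RNA of the minor spliceosome, went from 452 to 122 FPKM over a row of 135 bases. RNVU1-19, a variant U1 RNA, went from 65.8 to 12.9 FPKM over 167 bases, with a q-value of 0.0483 in the authors' test, the largest given. MIR6087, a symbol without a RefSeq match, fell from 247 to 8.31 FPKM over 541 bases. SNORD7, a small nucleolar RNA symbol, fell 2.57-fold over a row of 6631 bases, 68.4 times the RefSeq gene. The values of these falling rows may include other transcripts. How well the libraries captured RNAs of 135 and 167 bases was not tested. The rising rows are named for microRNAs whose mature forms are far shorter than their rows, so the mature sequences (RefSeq, GRCh38.p14, seed of bases 2 to 8 in capitals) are printed for scale.
hsa-miR-7845-5p: aAGGGACAgggagggucgugg
hsa-miR-1289: uGGAGUCCaggaaucugcauuuu
They are 21 and 23 bases long and their seeds differ. The MIR7845 row (0.794 to 10.5 FPKM) spans 95099 bases and the MIR1289-1 row (0.550 to 2.79 FPKM) spans 2104 bases. The values cover these longer rows and do not show levels of the mature microRNAs.

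Falling rows were shorter as a group. Median row span was 15.4 kb in lower rows and 37.9 kb in higher rows, and 30 of 86 lower rows against 8 of 56 higher rows were shorter than 10 kb. These are descriptions of genes already chosen for their change. Of the 142 rows, 140 matched a RefSeq symbol and 133 of them were protein-coding.

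Low expression limited what the ratios show. In the third of rows with the lowest values (higher group between 0.650 and 6.48 FPKM), the median absolute log2 fold change in the authors' deposited table was 1.07, against 0.72 in the third with the highest. With 1 FPKM added these medians were 0.68 and 0.70. The added value took 20 rows below an absolute log2 change of 1, 16 lower and 4 higher, among them RELB, NFKB2, BIRC3, EHF and TDO2 of the falls and BHLHE40 and NCR3LG1 of the rises.

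**Figure D5:**
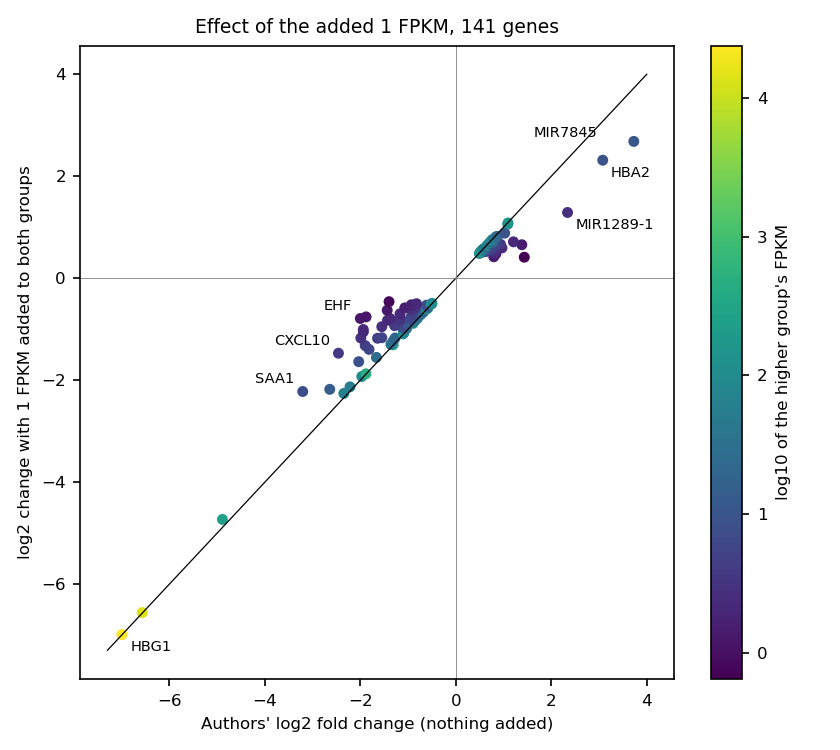
Log2 change with 1 FPKM added (y axis) against the log2 fold change of the authors' deposited table, with nothing added (x axis), for 141 genes, coloured by the higher group's FPKM on a log10 scale, with the line of equality. Dark points of low FPKM such as EHF and CXCL10 move toward 0, while HBG1 at -6.99 stays on the line.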

How the data were processed

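Total RNA from the WT clone was sequenced with a stranded kit, per the labels made to remove ribosomal RNA and globin RNA. The submitters' processing notes name STAR 2.5.0b, Cufflinks 2.2.1, Cuffdiff and hg19; the settings and the use of strand are not stated. Per the file headers, the authors deposited 1 FPKM value per group, a log2 fold change of the 2 values, a test statistic (a score of their comparison), and p-values with q-values. Depth is unknown, since no counts are given. The table was tied to the WT clone by the name it was deposited under. The other clone's table was used only to count symbols.

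Log2 changes were computed with 1 FPKM added to both groups, in Python 3.11.15 with pandas 2.3.3. No test was run. The number of genes tested was recovered as the smallest number making every rank implied by the authors' p-values and q-values whole, a step tested on simulated data. Starts count from 0 in the file (13 row spans equalled a GENCODE transcript under that reading, 3 under the other), so 1 was added. The genes to be named were the 20 largest rises and falls, A1CF and members of 20 lists of 521 genes, some of them given by fold alone; other rows are named by known function. Members, lists and function groups were chosen with earlier results or the symbols known. Values of some rows are not reported here.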

Additional observations from a re-analysis of the deposited data

How the results depend on the processing

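Counts and medians were recomputed under 8 settings. With nothing added, 9 rows rose and 41 fell by at least 1 on the log2 scale (GP9, at 0, left out) and the median absolute change was 0.84; with 0.1 FPKM added these were 9, 41 and 0.83, and with 5 FPKM added 3, 14 and 0.51, against 5, 26 and 0.69. At a q of at most 0.01, 30 rows were higher and the median was 0.79. Without several-symbol and small RNA rows, 3 rows rose by at least 1 and the median was 0.68. The median was 0.70 where 1 FPKM or more was required in either group and 0.68 without globins. Counts not listed here were within 1.5 times. No paired analysis was possible because the table holds 1 pooled value per group, and leaving out a replicate could not be run for the same reason.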

Other observations

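In the authors' deposited table, 91 of the 142 rows had the smallest p-value given, 5e-05, 61 of them lower and 30 higher, so their order by p is not resolved. In the authors' deposited table, 8 of 141 readable test statistics were under 2 in absolute value, among them PXK at 1.72, MALAT1 at 1.95 and KNG1 at -1.98. In 10 rows the span was over 5 times that of the RefSeq gene of the same symbol, as for CEBPD, CXCL10, LIMD2, MYH4 and BHLHE40.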
